A study of Homo sapiens with 7 samples.

Results

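The 41 genes described here are the cyclins, cyclin-dependent kinases (CDKs), E2F and RB family members, replication factors and mitotic regulators that drive the cell division cycle. They were chosen by name, with CDK inhibitors left out, from 20404 gene names merged from 22670 entries, and all 41 were found. RNA-seq had been performed on SEES-3 human embryonic stem cells (hESCs), an established line, which carried JMJD3c under a Tet-responsive element. JMJD3c is the C-terminal part of the H3K27 demethylase JMJD3 (KDM6B) with its catalytic domain, and doxycycline (Dox, 1 µg/ml) turns it on. The libraries of JMJD3c-hESCs were from untreated cells (Day 0) and from Days 1, 2, 3 and 4 of Dox. The JMJD3c mut-hESCs carry a form with a point mutation in the catalytic domain, and these were sampled without Dox and on Day 4 of Dox. All 7 libraries came from feeder-free cultures in medium for undifferentiated cells, and both lines carry the reverse Tet-transactivator and a puromycin-selected piggyBac insertion. Both were made as stable clones, and the number of clones behind each is not given in the sources used here. Each condition had 1 library. Differences therefore lack any check against replicates, and p-values are not given.

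The cell cycle runs on cyclins that come and go and on the CDKs they switch on. In G1, D- and E-type cyclins inactivate RB proteins and so release E2F factors, which turn on the genes for DNA replication. In G2 and M, cyclin B with CDK1, together with Polo and Aurora kinases, drives mitosis, and CDC20 with the anaphase-promoting complex ends it. Undifferentiated hESCs are known for a short G1 phase and for rapid division.

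Expression was given as FPKM, a fragment count divided by transcript length and by the size of the library, so that levels of different genes can be compared. Each value has a 95% interval from Cufflinks, which covers the uncertainty of estimation within a library but no difference from one culture to the next. A gene was called higher or lower when these intervals were apart and either library had more than 4 FPKM. It was past the ratio cutoff at a ratio above 2 or below 0.5 with more than 4 FPKM in the treated or the untreated library, respectively. Depth was estimated at 3560000 to 7320000 reads per library, lowest at Day 0. KDM6B, whose entry counts the induced form too, was at 3.45 FPKM on Day 0 and 158 to 282 FPKM on the Dox days. In the mutant line it was at 2.40 FPKM without and 454 FPKM with Dox. Of 7 mesoendoderm markers, 7 passed the ratio cutoff upward at Day 4 against Day 0, beside 5.87% of all genes. The authors had already reported MIXL1, EOMES, SOX17, FOXA2, GATA4 and GATA6 as raised in this course, so the count is not independent of these data. The summed level of the 7 was 4.69 FPKM on Day 0, 286 FPKM on Day 4 and 10.8 and 6.94 FPKM in the mutant line. The 5 markers of undifferentiated hESCs summed to 1974 FPKM on Day 0, 1411 FPKM on Day 4 and 1823 and 1598 FPKM in the mutant line. Among 5 fibroblast markers, DCN and LUM were listed at 0 FPKM in each library and COL3A1 at 0 to 0.102 FPKM, whereas THY1 was at 76.1 to 129.9 FPKM and COL1A1 at 4.18 to 11.3 FPKM. The part of changing cell types in the differences of cell cycle genes was not tested. In such bulk RNA, fewer cells of a type and less RNA per cell cannot be told apart.

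Levels within this module ranged from 0.807 to 207 FPKM, and most members stayed within 2-fold over the 5 days. The 6 genes of the E2F and RB family were at 1.19 to 19.4 FPKM. Of the 41 genes, 39 had a mean above 4 FPKM and 22 a mean above 50 FPKM over the 7 libraries. Over the 5 days of JMJD3c-hESCs, the highest value was within 1.5-fold of the lowest for 30 genes and within 2-fold for 37. Among all 9689 genes with a mean above 4 FPKM, 49.3% stayed within 1.5-fold and 80.8% within 2-fold. Highly expressed genes vary less in general: 77.8% of the 1667 genes with a mean above 50 FPKM stayed within 1.5-fold, beside 19 of the 22 cell cycle genes at that level. Over all 7 libraries, 21 of the 41 genes were within 1.5-fold and 34 within 2-fold, which was not counted over all genes. The median log2 difference of all 41 members at Day 4 was -0.10 against Day 0 and -0.09 against the untreated mutant line. For the 38 and 39 members past 4 FPKM alone it was -0.16 and -0.09. The medians of all genes tested, which are those past 4 FPKM, were -0.06 and -0.02. Scaling the libraries by their upper quartile moved the median of all genes against Day 0 to 0.06 and that of the 41 members to 0.02. The sign of these medians thus depended on scaling. The median of the 41 members minus that of all genes was -0.04 in both settings. This difference was -0.07 after correction for GC content and 0.01 with Day 3 as the treated library.

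**Figure D1:**
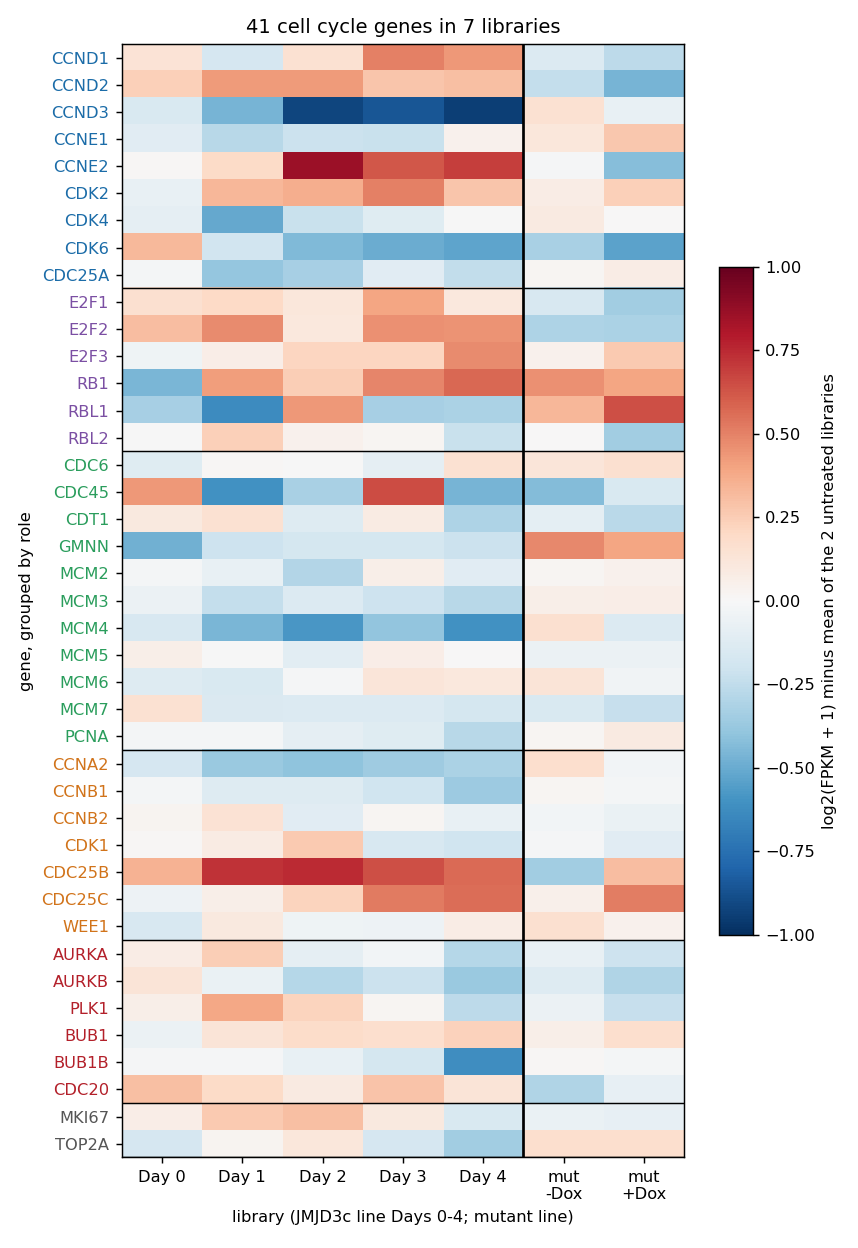
Log2(FPKM + 1) of each of the 41 genes (rows, grouped and coloured by role) in each of the 7 libraries (columns), shown as the difference from the mean of the untreated libraries, Day 0 and the mutant line without Dox. Most cells are pale. CCND3, MCM4 and BUB1B are dark blue on Day 4. CCNE2 is red on Days 2 to 4. CDC25B is red on Days 1 to 4, against a mean that holds its lowest library, the untreated mutant line.

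At Day 4 against Day 0, 1 of the 38 members past 4 FPKM, RB1, was above a ratio of 2, where 5.87% of all genes were, and 0 were below a ratio of 0.5, where 7.54% of all genes were. By intervals, 3 members were higher (CCND1, E2F3 and RB1, 7.89% of 38, beside 5.15% of all genes) and 5 were lower (CDK6, MCM4, MCM7, CCNB1 and BUB1B, 13.2% beside 6.99%). Intervals are narrower for genes with more reads, and among genes with a mean above 50 FPKM the share called lower was 16.9%, beside 18.2% of 22 members, which is close to this background. Against the untreated mutant line, CDC25B was above a ratio of 2 (7.04% of all genes) and CCND3 below 0.5 (3.88% of all genes). By intervals, 5 members were higher there (CCND1, CCND2, E2F3, CDC25B and CDC20, 12.8% of 39, beside 8.64% of all genes). Another 8 were lower (GMNN, MCM3, MCM4, PCNA, CCNA2, CCNB1, BUB1B and TOP2A, 20.5% beside 9.95%), and among genes above 50 FPKM the share was 36.4% of 22 members beside 20.1%. After correction for GC content, the higher members against this line were 3 (CCND1, CCND2 and E2F3), and the lower ones were 9, with CCND3, MCM2 and MCM7 gained and PCNA and CCNB1 lost. The same correction brought CDC25B below a ratio of 2. The untreated libraries of the 2 lines differed from each other as well: by intervals, 5 members were higher in the mutant line than at Day 0 (6.78% of all genes) and 5 were lower (6.93%). The lower count depended on the setting, with 2 after GC correction (CCND2 and CDK6) and 2 after upper-quartile scaling (MCM7 and CDC20). Members apart from both untreated libraries were 2 higher members, CCND1 and E2F3 (3.29% of all genes), and 3 lower members, MCM4, CCNB1 and BUB1B (3.07%). Above 50 FPKM, they were 1 of 22 higher (CCND1) beside 5.4% of such genes and 3 of 22 lower beside 7.2%. Of the 5, CCNB1 was not apart from Day 0 after either scaling of the libraries, nor from the untreated mutant line after correction for GC content, while the other 4 were called under each of these settings. The GC correction added MCM7 to the members lower than both.

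**Figure D2:**
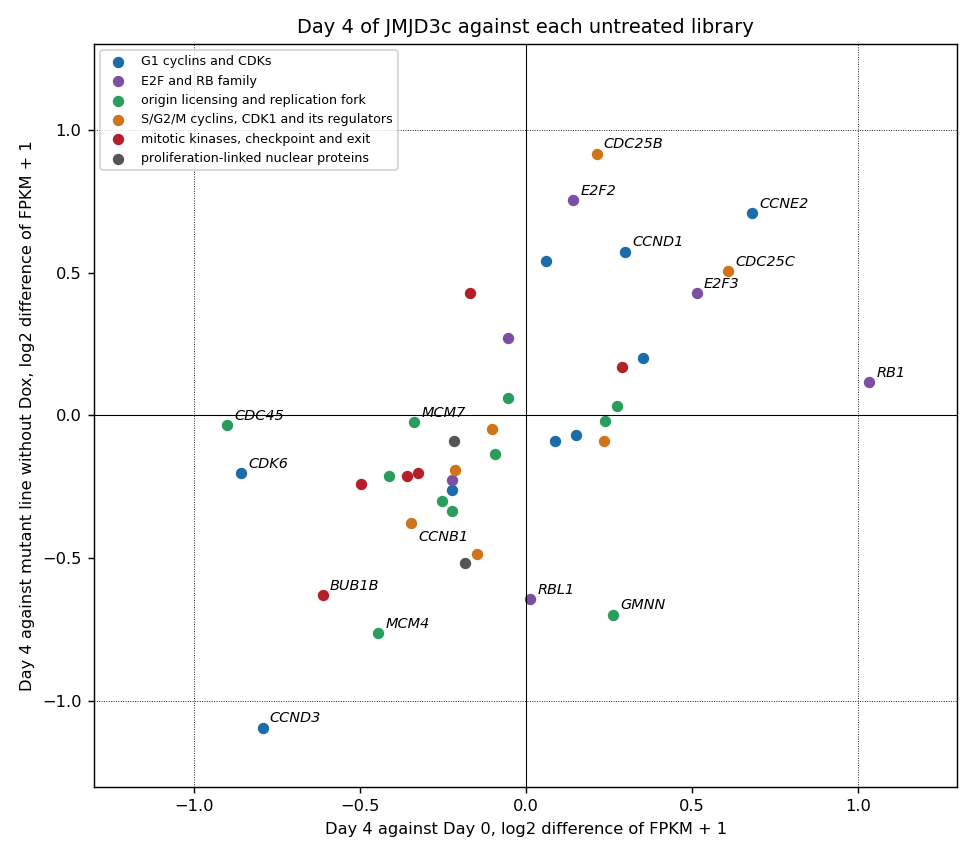
Each point is 1 of the 41 genes, coloured by role, with its log2 difference of FPKM + 1 at Day 4 of JMJD3c against Day 0 on the horizontal axis and against the mutant line without Dox on the vertical axis. Dotted lines mark a difference of 1 and -1. CCND1 and E2F3 lie at the upper right, MCM4, CCNB1 and BUB1B at the lower left, and RB1 is near 1 on the horizontal axis only.

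Promoter sequences of 8 members are shown as examples of 3 short motifs, whose shares among the role groups are given after them. These are the CHR, the CCAAT box and the E2F motif. The CHR element, searched here only as TTTGAA, or TTCAAA on the other strand, is known to recruit the MuvB and DREAM complexes to G2/M genes. The CCAAT box (CCAAT or ATTGG) is bound by NF-Y, and the E2F motif searched here (TTTNNCGC or GCGNNAAA) resembles the core of E2F sites. Sequences are the 150 bases before the annotated start, 5′ to 3′ on the strand of the gene, from RefSeq on GRCh38.p14, which is another build than the hg19 of the expression files. Capitals mark the motifs, and where a gene has several starts the first listed window with its motif is shown. The first set holds G2/M genes whose levels were lowest at Day 4, at chr15:40160919-40161068 (+ strand) for BUB1B, chr16:23678739-23678888 (+) for PLK1, chr10:128126424-128126573 (-) for MKI67 and chr5:69167000-69167149 (+) for CCNB1. The CHR begins 23 bases before the start in BUB1B and 29 bases before it in PLK1. MKI67 has a CHR at 47 and another at 29, the latter overlapping an ATTGG. In the window of CCNB1 neither CHR spelling searched here is found, and no other spelling was searched.
BUB1B: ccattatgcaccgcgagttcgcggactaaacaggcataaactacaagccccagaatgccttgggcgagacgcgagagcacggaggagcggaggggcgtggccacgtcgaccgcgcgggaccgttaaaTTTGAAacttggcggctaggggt
PLK1: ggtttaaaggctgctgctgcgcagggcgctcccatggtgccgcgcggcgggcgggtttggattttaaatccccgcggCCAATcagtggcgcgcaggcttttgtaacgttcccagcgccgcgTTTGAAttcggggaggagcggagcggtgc
MKI67: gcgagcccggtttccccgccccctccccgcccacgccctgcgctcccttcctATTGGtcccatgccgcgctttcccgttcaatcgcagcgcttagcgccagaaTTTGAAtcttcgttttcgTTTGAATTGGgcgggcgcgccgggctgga
CCNB1: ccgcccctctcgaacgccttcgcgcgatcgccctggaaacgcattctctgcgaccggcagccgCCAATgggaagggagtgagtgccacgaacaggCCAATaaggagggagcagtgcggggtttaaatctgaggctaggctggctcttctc

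The second set holds G1/S genes, at chr20:5126623-5126772 (-) for PCNA, chr2:135876444-135876593 (-) for MCM6, chr7:100101398-100101547 (-) for MCM7 and chr6:20401729-20401878 (+) for E2F3. In MCM6 the E2F letters TTTGGCGC and GCGCGAAA overlap, and in MCM7 TTTCGCGC begins 9 bases before the start. E2F3 carries an E2F motif (GCGGGAAA), a CHR and a CCAAT box in these 150 bases.
PCNA: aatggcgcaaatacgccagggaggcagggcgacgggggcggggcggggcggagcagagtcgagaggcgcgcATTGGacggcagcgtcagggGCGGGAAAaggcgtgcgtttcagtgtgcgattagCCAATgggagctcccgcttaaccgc
MCM6: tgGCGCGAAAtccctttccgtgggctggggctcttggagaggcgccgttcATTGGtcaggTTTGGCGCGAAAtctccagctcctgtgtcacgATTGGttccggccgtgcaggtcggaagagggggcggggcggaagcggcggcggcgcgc
MCM7: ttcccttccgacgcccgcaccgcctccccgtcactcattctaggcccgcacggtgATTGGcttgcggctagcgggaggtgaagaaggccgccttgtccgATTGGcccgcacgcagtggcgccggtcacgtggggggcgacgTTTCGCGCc
E2F3: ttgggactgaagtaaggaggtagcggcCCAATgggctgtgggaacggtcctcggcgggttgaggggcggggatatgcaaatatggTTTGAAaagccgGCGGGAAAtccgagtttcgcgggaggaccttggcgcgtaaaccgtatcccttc

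Windows of 250 bases before the start were searched on both strands for 33 members with 52 windows, and a gene counted once if any of its windows held the letters. CHR letters were found in 8 of 13 G2/M members (61.5%), in 1 of 20 G1, E2F/RB and replication members (E2F3, 5.0%) and in 16.1% of 27305 genes. E2F letters showed the opposite split, with 1 of 13 (CDK1, 7.69%), 11 of 20 (55%) and 7.15%. CCAAT letters were in 12 of 13 (92.3%), 12 of 20 (60%) and 37%. The 27305 genes had 35116 windows, fewer per gene than the members, and more windows give more chances of a match. By window, in the same order, CHR letters were in 42.9%, 3.2% and 13.3%. E2F letters were in 4.8%, 35.5% and 5.9% of windows, and CCAAT letters in 76.2%, 54.8% and 32.0%. A match describes the letters of these windows only and is not evidence of a site in use. CCND1, CCND2, CCNE2, CDK2, MCM4, MCM5, AURKA and WEE1 were not matched.

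Among the 9 G1 cyclins and CDKs, CCND1 was higher at Day 4 than in both untreated libraries, while CCND3 had its lowest value there. CCND1 (cyclin D1, ENSG00000110092, chromosome 11, 69455855 to 69469242 in hg19) activates CDK4 and CDK6 in response to growth signals. Its FPKM was 98.3, 79.2, 99.2, 127 and 121 on Days 0 to 4, and 81.1 and 74.1 without and with Dox in the mutant line. The values of Days 3 and 4 were above all others, with the Day 4 interval (113 to 129 FPKM) apart from Day 0 (90.1 to 106) and from the untreated mutant line (75.2 to 86.1). The ratio at Day 4 was 1.23 against Day 0 and 1.49 against that line. Day 1 was lower than Day 0 by intervals, so the course was a dip followed by a rise. The locus of CCND1 overlaps that of ORAOV1 in the files, and the strand setting of the counting is not given in the sources used here.

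CCND3 (cyclin D3, ENSG00000112576), another CDK4 and CDK6 partner, was at 15.8, 12.6, 8.90, 9.35 and 8.72 FPKM on Days 0 to 4, and 19.7 and 16.7 FPKM in the mutant line. Days 2 to 4 were lower than the other 4 libraries, and the ratio at Day 4 was 0.442 against the untreated mutant line and 0.551 against Day 0. The intervals are wide, 5.64 to 16.1 FPKM at Day 4 and 14.1 to 25.6 in the untreated mutant line, and overlap as deposited, whereas after GC correction they were apart. CCND2 (cyclin D2) was steady in JMJD3c-hESCs at 37.2 to 42.6 FPKM and lower in the mutant line, at 26.4 and 22.5 FPKM, so its Day 4 call against that line came with a Day 0 value that was also higher than there. Of the summed FPKM of the D-type cyclins, CCND1 made up 64.9% on Day 0 and 71.8% on Day 4. Its share was 63.7% without and 65.4% with Dox in the mutant line.

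CDK4, a partner of D-type cyclins, had the highest mean of this group, 154 FPKM. Its levels were 156, 117, 143, 153 and 166 FPKM on Days 0 to 4, and 177 and 166 FPKM in the mutant line. Day 1 was the lowest, and Day 4 was higher than Day 1 by intervals. CDK6, its paralog, was at 17.9, 12.2, 10.1, 9.66 and 9.42 FPKM on Days 0 to 4, and at 11.0 and 9.40 FPKM in the mutant line. The Day 4 ratio was 0.527 against Day 0 but 0.857 against the untreated mutant line, so Day 0 was the high library. CDK4 provided 89.7% of the summed FPKM of the pair at Day 0 and 94.6% at Day 4.

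CCNE2 (cyclin E2) had the lowest mean of all members, with 1.45, 1.77, 3.41, 2.74 and 2.94 FPKM on Days 0 to 4, and 1.41 and 0.807 FPKM in the mutant line. Days 2 to 4 were the highest values, but none passed 4 FPKM, and the intervals of Day 4 (0.262 to 5.93) and Day 0 (0 to 4.14) overlap. CCNE1 (cyclin E1) was at 21.8 to 32.2 FPKM over the 7 libraries. CDK2, the partner of both E-type cyclins, was at 20.7 FPKM on Day 0 and 26.7 to 31.4 FPKM on the Dox days, with intervals apart from Day 0 on Day 3 only. CDC25A, the phosphatase that activates CDK2, was at 25.7 to 35.6 FPKM.

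**Figure D3:**
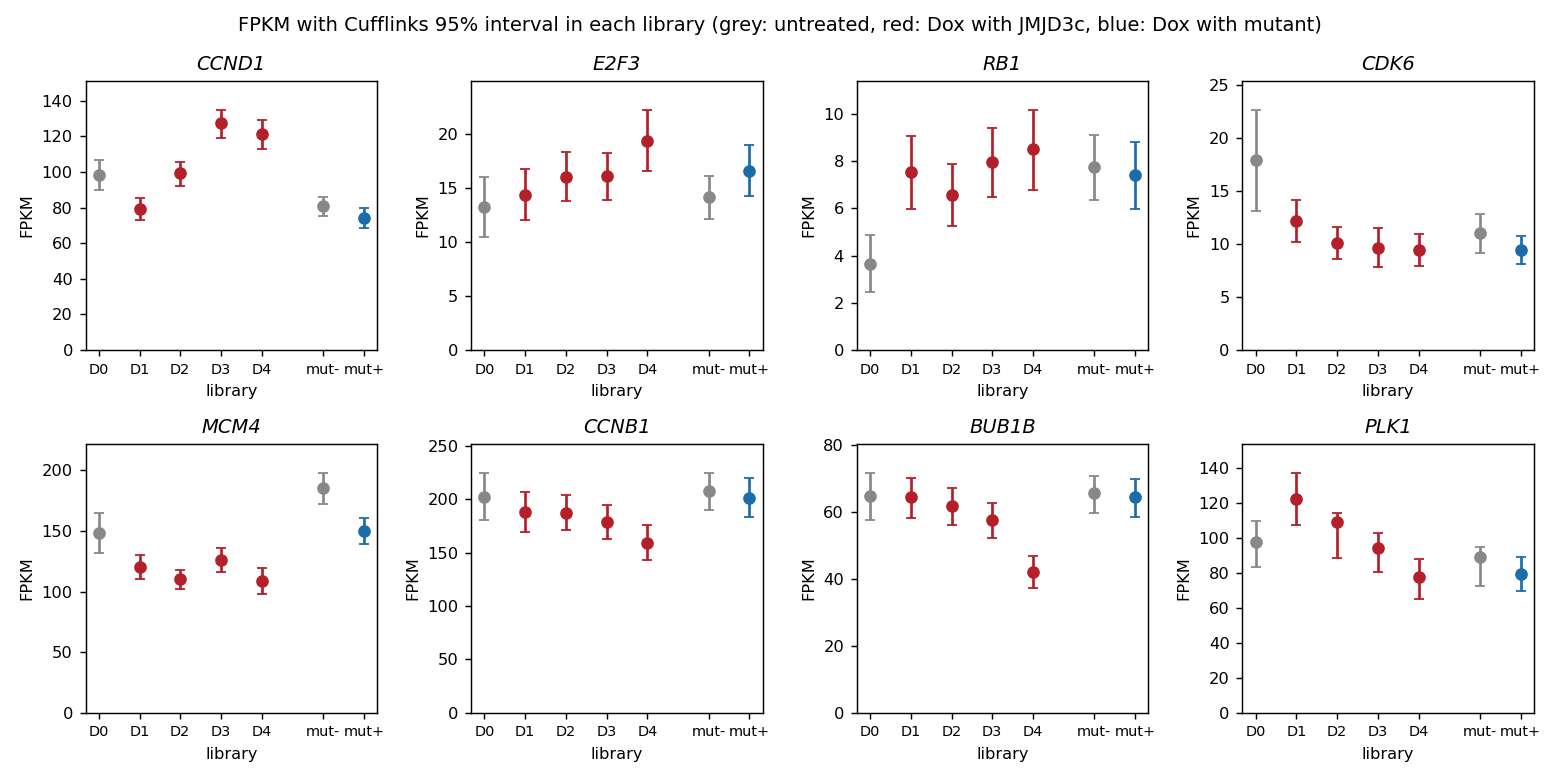
FPKM (vertical axes, from 0) of 8 members in each of the 7 libraries (horizontal axes: D0 to D4 are Days 0 to 4, mut- and mut+ the mutant line without and with Dox), with Cufflinks 95% intervals as bars. Grey is untreated, red is Dox with JMJD3c and blue is Dox with the mutant. CCND1 and E2F3 end above both grey points, BUB1B and MCM4 below both, and Day 0 alone is low for RB1 and high for CDK6.

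Of the 6 genes of the E2F and RB family, E2F3 was the highest expressed and RB1 had the only ratio above 2 at Day 4 against Day 0. E2F3 (ENSG00000112242, chromosome 6, 20402398 to 20493941), an activating E2F, was at 13.3, 14.4, 16.1, 16.1 and 19.4 FPKM on Days 0 to 4, and at 14.1 and 16.6 FPKM in the mutant line. Day 4 was the highest of the 7 libraries. Its interval (16.5 to 22.2) was apart from Day 0 (10.5 to 16.0) and the untreated mutant line (12.1 to 16.1), but overlapped that of the Dox-treated mutant line (14.3 to 18.9). The Day 4 ratio was 1.46 and 1.37 against the untreated libraries, and Dox in the mutant line gave a ratio of 1.18. E2F1 was at 8.95 to 15.7 FPKM, and its lowest values were in the mutant line. E2F2 had the lowest mean in the family, with 2.37, 2.78, 1.93, 2.74 and 2.71 FPKM on Days 0 to 4, and 1.20 and 1.19 FPKM in the mutant line. Its Day 4 interval (1.82 to 3.56) lay above those of the mutant line (0.735 to 1.68 and 0.661 to 1.68). No value passed 4 FPKM, so E2F2 was not called.

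RB1, the retinoblastoma protein that restrains E2F (ENSG00000139687, chromosome 13, 48877911 to 49056122), was at 3.63, 7.52, 6.56, 7.96 and 8.49 FPKM on Days 0 to 4, and at 7.76 and 7.4 FPKM in the mutant line. Only the Day 0 value was low, and its interval (2.44 to 4.87) was below those of the other 6 libraries. The ratio at Day 4 was 2.34 against Day 0, 1.10 against the untreated mutant line and 1.13 against Day 1. The RB1 call thus rested on the Day 0 library, the shallowest of the series, and whether its depth had a part was not tested. The RB1 locus overlaps that of LPAR6. RBL1 (p107), which has several entries of which the highest was used, was at 3.18, 2.40, 6.07, 3.17 and 3.22 FPKM on Days 0 to 4, and at 5.59 and 7.21 FPKM in the mutant line. Day 2 and the mutant line were high, with wide intervals. RBL2 (p130) was at 5.86 to 9.29 FPKM, with wide overlap between days.

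The 11 origin licensing and fork genes reached 204 FPKM, a level exceeded only by CCNB1. Their median log2 difference at Day 4 was -0.22 against Day 0 and -0.13 against the untreated mutant line, with 8 and 9 of the 11 below 0. Of all genes tested in these comparisons, 5652 of 10238 and 5180 of 10033 were lower in value. PCNA, the sliding clamp of DNA polymerases, was at 189, 190.0, 181, 177 and 158 FPKM on Days 0 to 4, and at 195 and 204 FPKM in the mutant line. Day 4 was the lowest, and its interval (142 to 175 FPKM) was apart from the untreated mutant line (180.0 to 211), though not after GC correction, and not from Day 0 (168 to 209.8). CDC45, a part of the replicative helicase, had the lowest mean of the group and no steady course, with 27.3, 12.8, 15.7, 31.9 and 14.2 FPKM on Days 0 to 4, and 14.5 and 17.9 FPKM in the mutant line.

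MCM4, a subunit of the MCM2 to MCM7 helicase ring, was at 148, 120.2, 110.2, 126 and 109 FPKM on Days 0 to 4, and at 185 and 150.3 FPKM in the mutant line. Each Dox library was below the untreated library of its own line, and all 4 JMJD3c Dox libraries were below the other 3. The Day 4 ratio was 0.734 against Day 0 and 0.587 against the untreated mutant line. Dox with the mutant gave a ratio of 0.811, also with intervals apart (139.6 to 161 against 172 to 198 FPKM). Of the other ring subunits, MCM7 was at 196 FPKM on Day 0 and at 150 to 160.5 FPKM in the other 6 libraries, so as deposited Day 0 alone was high. After GC correction MCM7 was also lower at Day 4 than in the untreated mutant line. Its locus overlaps AP4M1. MCM3 was at 101 FPKM on Day 4, the lowest of its 7 values, which reached 129 FPKM. MCM2, MCM5 and MCM6 were at 45.1 to 57.7, 139 to 157 and 85.9 to 104 FPKM.

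CDC6 and CDT1, which load the MCM ring on origins, were at 65.6 to 79.9 FPKM and 25.1 to 35.0 FPKM. GMNN (geminin, the inhibitor of CDT1) was at 45.2 to 56.1 FPKM on the 5 days and at 89.0 and 83.7 FPKM in the mutant line. The GMNN call at Day 4 against the mutant line thus came with a Day 0 value below that line as well, and Day 4 was above Day 0 in value.

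In the group of 7 S, G2 and M cyclins, CDK1 and its regulators, CCNB1 was the most abundant member of the whole module, with a mean of 189 FPKM. CCNB1 (cyclin B1, ENSG00000134057, chromosome 5, 68462837 to 68474072), which activates CDK1 for entry into mitosis, was at 203, 188, 187, 178 and 159 FPKM on Days 0 to 4. In the mutant line it was at 207 and 202 FPKM. The Day 4 value was the lowest of the 7, at ratios of 0.787 and 0.768 to the untreated libraries. Its interval (143 to 176) lay just below that of Day 0 (181 to 225), and other scalings ended this call. CDK1 itself was at 67.6 to 93.7 FPKM, lowest at Day 4 and highest at Day 2. CCNB2 was at 72.5 to 86.7 FPKM, and CCNA2 (cyclin A2) was at 58.9 to 69.3 FPKM in JMJD3c-hESCs beside 87.8 and 76.7 FPKM in the mutant line.

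The CDK1 phosphatases were low, and CDC25B had the lowest mean of the group. CDC25B was at 7.27, 9.68, 9.88, 9.12 and 8.59 FPKM on Days 0 to 4, and at 4.08 and 7.04 FPKM in the mutant line. The untreated mutant line was the lowest library, and both Dox conditions were above the untreated library of their line in value. The ratio was 2.11 for Day 4 against the untreated mutant line, 1.18 for Day 4 against Day 0 and 1.72 for Dox in the mutant line. After GC correction, CDC25B was called by neither criterion. CDC25C was at 11.5, 12.5, 14.1, 17.6 and 18.1 FPKM on Days 0 to 4, and at 12.4 and 17.5 FPKM in the mutant line, so both Day 4 Dox libraries were at like levels and above their untreated libraries, with overlapping intervals. WEE1, the kinase that opposes CDC25, was at 53.1 to 66.9 FPKM.

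Of the 6 mitotic kinases, checkpoint and exit factors, 5 were below Day 0 in value at Day 4, beside 5652 of 10238 genes tested. Day 4 was the lowest day for 4 of the 6, and BUB1B carried the difference beyond both untreated libraries. BUB1B (BUBR1, ENSG00000156970, chromosome 15, 40453227 to 40513337), a spindle checkpoint protein that restrains CDC20, was at 64.8, 64.5, 61.8, 57.6 and 42.0 FPKM on Days 0 to 4, and at 65.5 and 64.3 FPKM in the mutant line. The other 6 libraries lay between 57.6 and 65.5 FPKM, and Day 4 lay below them. Its interval (37.2 to 46.8) was below those of all other libraries, of which Day 3 was the nearest (52.3 to 62.8). The Day 4 ratio was 0.649 against Day 0, 0.641 against the untreated mutant line and 0.652 against Day 1, and the ratio with Dox in the mutant line was 0.982. The BUB1B locus overlaps that of PAK6 in the files.

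PLK1, AURKA and AURKB also had their lowest day on Day 4. PLK1 (Polo-like kinase 1) was at 97.4, 122, 109, 94.5 and 77.6 FPKM on Days 0 to 4, and at 89.3 and 79.4 FPKM in the mutant line. Day 1 was its highest library. AURKA (Aurora A) was at 62.0, 70.1, 55.4, 57.9 and 48.2 FPKM on Days 0 to 4, and at 56.0 and 50.9 FPKM in the mutant line. AURKB (Aurora B) was at 112, 97.5, 84.0, 88.0 and 79.1 FPKM on Days 0 to 4, and at 93.6 and 82.7 FPKM in the mutant line. For all 3 kinases Day 4 was near the Dox-treated mutant line.

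CDC20, the activator of the anaphase-promoting complex, had the highest mean of this group. It was at 159.5, 148, 138, 158 and 142 FPKM on Days 0 to 4, and at 105 and 123 FPKM in the mutant line. Both mutant values were below all 5 days. The calls of CDC20 against the untreated mutant line, from Day 0 and from Day 4, were lost after GC correction. BUB1, the checkpoint kinase, had the lowest mean and went the opposite way from BUB1B in value, with 39.2, 44.8, 46.7, 46.0 and 48.2 FPKM on Days 0 to 4, and 42.7 and 46.1 FPKM in the mutant line. Its intervals overlapped between all libraries.

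Both proliferation-linked nuclear proteins were highest on Day 2 and lowest on Day 4 of the 5 days. MKI67, the Ki-67 antigen, was at 35.4, 40.8, 41.8, 36.3 and 30.4 FPKM on Days 0 to 4, and at 32.3 and 31.8 FPKM in the mutant line. TOP2A, the topoisomerase that untangles chromosomes, was at 85.7, 98.3, 104, 85.7 and 75.3 FPKM on Days 0 to 4, and at 108 and 108 FPKM in the mutant line. By intervals both were higher at Day 2 than at Day 0, and neither was lower at Day 4 than at Day 0.

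Along the course, 1 to 3 members were called in each direction by intervals on each of Days 1 to 3 against Day 0. At Day 1, RB1 was higher (2.63% of 38, beside 1.43% of all genes) and CCND1, MCM4 and MCM7 were lower (7.89% beside 2.53%). At Day 2, RB1, MKI67 and TOP2A were higher (7.69% of 39 beside 2.72%) and CDK6, MCM4 and MCM7 were lower (7.69% beside 4.5%). At Day 3, CCND1, CDK2 and RB1 were higher (7.89% of 38 beside 4.44%) and CDK6 and MCM7 were lower (5.26% beside 4.33%). Above a mean of 50 FPKM, 13.6%, 9.09% and 4.55% of 22 members were lower on Days 1, 2 and 3. Of all genes at that level, 9.78%, 13.9% and 11.4% were lower. The shares higher were 0%, 4.55% and 4.55% of the 22 members, beside 2.04%, 3.48% and 6.9%. By ratio, RB1 was above 2 on Day 1 (3.46% of all genes) and Day 3 (4.72%), and CDC45 was below 0.5 on Day 1 (3.24%), with overlapping intervals. Day 4 was the lowest of the 5 days for 17 members and Day 3 for 0, while Day 0 was the lowest for 11, Day 1 for 7 and Day 2 for 6. From Day 1 on, 6 members went down at every step (CDK6, RBL2, PCNA, CCNB1, PLK1 and BUB1B) and 3 went up at every step (CDK4, E2F3 and CDC25C). Lowest days and steps were not counted over all genes, so these numbers have no background beside them. With Day 1 as the reference, a comparison added after the data were seen that leaves Day 0 out, 5 members were lower at Day 4 (AURKA, PLK1, BUB1B, MKI67 and TOP2A, 13.2% of 38, beside 5.12% of all genes). These 5 belong to the mitotic and proliferation-linked groups. The 4 of them with a promoter window hold CHR letters, as do CCNB2, CDC20, CDC25C, CDK1 and E2F3, which were not lower. The ratio of Day 4 to Day 1 was 1.45 for CDC25C and 1.35 for E2F3. CCND1 and CDK4 were higher (5.26% beside 4.88%). Above 50 FPKM, 4 of 22 members were lower (18.2%), beside 8.64% of such genes.

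In the mutant line, few members differed with Dox. No member passed a ratio of 2 (0 of 39, beside 1.21% of all genes) or of 0.5 (0 of 39, beside 1.52%). By intervals 0 were higher (1.45% of all genes) and 1 was lower, MCM4 (1.68%). The median absolute log2 difference was 0.13 for the members and 0.17 for all genes. At Day 4 of Dox in both lines, which compares JMJD3c with its mutant, 2 members were higher with JMJD3c (CCND1 and CCND2, 7.59% of all genes) and 8 were lower (8.67%), 20.5% of 39. Above 50 FPKM, these 8 were 36.4% of 22 members, beside 18.4% of such genes. By ratio, 0 members were above 2 (6.57% of all genes) and RBL1 was below 0.5 (2.99%), with overlapping intervals. The 8 were those already lower against the same line without Dox, a comparison that uses the same Day 4 library. After GC correction PCNA and CCNB1 were no longer lower there. The comparison with the Dox-treated mutant line was not repeated under other scalings. GMNN, MCM4, CCNA2 and TOP2A, which are among the 8, were also called higher in the untreated mutant line than at Day 0. After GC correction this held for GMNN and MCM4 but not for CCNA2 and TOP2A, while MCM3, another of the 8, was gained.

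Genes that work beside the members were counted in the same way. Of 45 other replication genes, 0 passed the ratio cutoff in either direction at Day 4 against Day 0, and by intervals 1 was higher (2.22%) and 5 were lower (11.1%), beside 5.15% and 6.99% of all genes. The median log2 difference was -0.04. Against the untreated mutant line 2 were higher (4.44%) and 6 were lower (13.3%), beside 8.64% and 9.95%. ORC3 was below a ratio of 0.5 there (2.22% of 45, beside 3.88% of all genes). WDHD1, a replisome adaptor, was the only one of the 45 lower than both untreated libraries, where 3.07% of all genes were. It was at 42.3, 46.3, 44.9, 37.8 and 24.6 FPKM on Days 0 to 4, and at 41.4 and 40.7 FPKM in the mutant line. Of 45 other mitotic genes, 0 passed the ratio cutoff, and 1 was higher (2.22%) and 3 were lower (6.67%) by intervals, with a median of -0.13. Against the untreated mutant line 1 was higher (2.22%) and 7 were lower (15.6%). CKS1B counts among these 45, and the entry used for it, that with the highest mean, lies on another chromosome than the known gene. TPX2, the Aurora A activator, and HMMR, a spindle protein, were the 2 of 45 lower than both untreated libraries, beside the same 3.07% of all genes. HMMR was at 78.6, 80.6, 73.8, 65.5 and 49.6 FPKM on Days 0 to 4, and at 72.1 and 74.6 FPKM in the mutant line. As for BUB1B, the lowest values of WDHD1 and HMMR were on Day 4. TPX2 was at 86.1 FPKM on Day 0, 67.5 on Day 4 and 83.9 in the untreated mutant line. WDHD1, TPX2 and HMMR were chosen after their values were seen.

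Of 21 subunits of the APC/C and SCF ubiquitin ligases, which destroy cyclins, 0 passed either call at Day 4 against Day 0. Their median log2 difference was -0.09. Of all genes, 5.87% were above a ratio of 2 there and 7.54% below 0.5, while 5.15% were higher and 6.99% lower by intervals. Against the untreated mutant line 3 subunits (ANAPC1, ANAPC4 and CUL1, 14.3%, beside 9.95% of all genes) were lower by intervals. Of 13 other E2F, DP and DREAM subunits, 12 passed 4 FPKM, and E2F7 and LIN54 (16.7% of 12, beside 5.87% of all genes) were above a ratio of 2 with overlapping intervals. LIN37 was above 2 against the untreated mutant line (8.33% of 12, beside 7.04% of all genes). E2F7, a repressive E2F, was at 7.49 FPKM on Day 0, 15.6 on Day 4 and 14.1 in the untreated mutant line. LIN54, the CHR-binding subunit of MuvB, was at 2.95 FPKM on Day 0, 6.48 on Day 4 and 5.58 in the untreated mutant line. For both, as for RB1, the untreated mutant line was near Day 4 and Day 0 was low.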

How the data were processed

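Total RNA was poly(A)-selected and sequenced as single reads of 150 bases on a MiSeq, 1 library for each of 7 conditions, with a directional library kit. The authors mapped reads to hg19 with TopHat 2.0.13 and deposited FPKM per gene with 95% bounds from Cufflinks 2.1.1. The submitters' processing notes also name CASAVA 1.4. The annotation release and strand option are not given in the sources used here, so reads of the 12 members whose loci overlap other genes could be shared.

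Files hold no counts. Depth was estimated from the spacing of low FPKM values of short gene models, with 200 bases subtracted from the length. The 22670 entries were merged by name, keeping the highest mean FPKM. Ratios were calculated without a pseudocount, log2 differences with a pseudocount of 1, and calls with a cutoff of 4 FPKM. Intervals do not cover variation between cultures. Because each condition had 1 library, no test was made. Calculations used Python 3.11.15, numpy 2.4.6, pandas 2.3.3 and matplotlib 3.10.9, and were tested on simulated data.

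Values in every library are given for members past the ratio cutoff at Day 4 against an untreated library or with Dox in the mutant line, for members apart from both untreated libraries and for the highest and lowest mean of each role. Those of CDK6, RBL1, CDC25C, PLK1, AURKA and AURKB, and the promoters shown, were chosen after values were seen, as were Day 1 as a reference and the background above 50 FPKM. Members and lists were chosen with earlier results of these data known. Alternatives changed the cutoff, pseudocount, scaling, merging, GC correction (GENCODE lengths and GC on the build of the files), treated day and reference.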

Additional observations from a re-analysis of the deposited data

How the results depend on the processing

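The limits come first from the design, since 1 library per condition leaves culture variation unmeasured, and from depth, which keeps intervals of members below 10 FPKM wide. No paired analysis was possible because each condition has 1 library and no result comes from a test. For the members at Day 4 against Day 0, the median log2 difference of -0.101 was -0.042 after scaling to a median ratio of 1, 0.0225 after upper-quartile scaling, 0.000145 with Day 3 as the treated library and -0.0414 with Day 1 as the reference, the last chosen after seeing the data. The medians of Days 1, 2 and 4 moved from 0.034 to 0.0752, from -0.0654 to -0.0124 and from -0.101 to -0.042 with the first of these scalings. The count above a ratio of 2, 1 gene, was 2 with a cutoff of 1 FPKM or none, 0 with a cutoff of 10 FPKM and 0 with Day 1 as the reference. The count below 0.5 was 0, and 1 against the untreated mutant line. By intervals, the 3 higher members became 5 against that line, and the 5 lower became 8 there, 3 after upper-quartile scaling and 2 at Day 3. Of 117 such values in all, 101 moved little, that is, a median by less than 0.0338 (the difference between the untreated libraries) or a count by at most 1.5-fold. The cause of the other shifts was not tested, beyond the fewer or more genes that another cutoff admits. Part of the 117 values could not move: the median of the members does not depend on the cutoff, nor the counts on the pseudocount. For 10 members under the same alternatives, 200 of 210 differences stayed within the width of their intervals, and none that was called changed sign. Here too a part could not move. The log2 difference of a gene does not depend on the cutoff, and none of the 10 has several entries to sum. The tallies of unmoved values thus overstate how much was tried. In the mutant line none of the summary values moved, with the same limits.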
